A study of Coturnix japonica with 12 samples.

Results

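Haemoglobin subunit genes were followed in RNA from the Müllerian ducts of female Japanese quail (Coturnix japonica) embryos. Members were all genes that the deposited table describes as a haemoglobin subunit, 7 of 16013 genes, and 6 of them are described. They are the alpha-type chains alpha-A, alpha-D and pi, and the beta-type chains beta, beta-like and epsilon. The Müllerian ducts are the paired embryonic tubes that give rise to the oviduct, and in most female birds the left one persists while the right one regresses. Embryos were kept in surrogate eggshells and given ethynylestradiol (EE), a synthetic oestrogen, in sesame oil, or sesame oil alone, between embryonic days 3 and 12. The 12 samples were 3 left EE ducts, 3 right EE ducts, 3 left oil ducts and 3 right oil ducts, all from females. The labels do not say at what age the ducts were taken, whether ducts were pooled, or whether replicates came from separate embryos, so p-values measure the spread between these samples, which may be technical.

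Haemoglobin carries oxygen in red cells as a tetramer of alpha-type and beta-type chains, each holding a haem group. In the chicken the first red cells of the embryo carry embryonic chains, pi and epsilon among them, together with alpha-A and alpha-D, and later red cells replace the embryonic chains with alpha-A, alpha-D and the adult beta chain. Red cells of birds keep their nucleus and go on holding RNA in the circulation, so haemoglobin transcripts in a solid tissue are a usual mark of blood in it. The annotation gives the beta-like gene no stage of its own, and it is kept apart here from both the embryonic and the adult chains. In RNA from whole ducts, fewer red cells and less haemoglobin RNA per red cell cannot be told apart.

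The 3 alpha-type genes stood side by side on chromosome 14, in the order pi (LOC107320994, chr14:10709904-10713023), alpha-D (LOC107320986, chr14:10714879-10715847) and alpha-A (LOC107320982, chr14:10717735-10718571). All were on the plus strand, with gaps of 1855 and 1887 bases between neighbours. Beta-like (LOC107308586, chr1:174153607-174157650) and beta (LOC107308585, chr1:174159365-174160967) were neighbours on the plus strand of chromosome 1, with 1714 bases between them. Epsilon (LOC107306765) was on an unplaced scaffold assigned to chromosome 1, at its bases 741 to 2367. Exonic lengths ran from 536 bases for alpha-D to 776 bases for pi. Coordinates are those of the deposited table, which had the same start and end for every gene as the RefSeq table of Coturnix japonica 2.1. The chains of each type resemble each other in sequence, and how the counting treated reads that fit several of them is not given in the sources used here.

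The 6 genes took 10238351 counts over the 12 samples, and total counts ran from 13303458 to 23621985 per sample. Haemoglobin took 0.990%, 1.94% and 2.10% of all gene counts in left EE ducts and 5.64%, 1.66% and 4.17% in right EE ducts. It took 3.01%, 2.03% and 1.35% in left oil ducts, against 6.11%, 12.7% and 7.45% in right oil ducts. All 3 right oil ducts lay above the other 9 samples, and right EE replicate 2 lay among the left ducts. The means were 1.68% ± 0.599, 3.83% ± 2.01, 2.13% ± 0.834 and 8.76% ± 3.49 (SD, n = 3 each) in left EE, right EE, left oil and right oil ducts. Counting error was small beside this spread: for left EE replicate 1, the lowest, the 95% Wilson interval ran from 0.986% to 0.994%, and such intervals cover counting error only. The share varied 12.8-fold over the 12 samples.

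**Figure D1:**
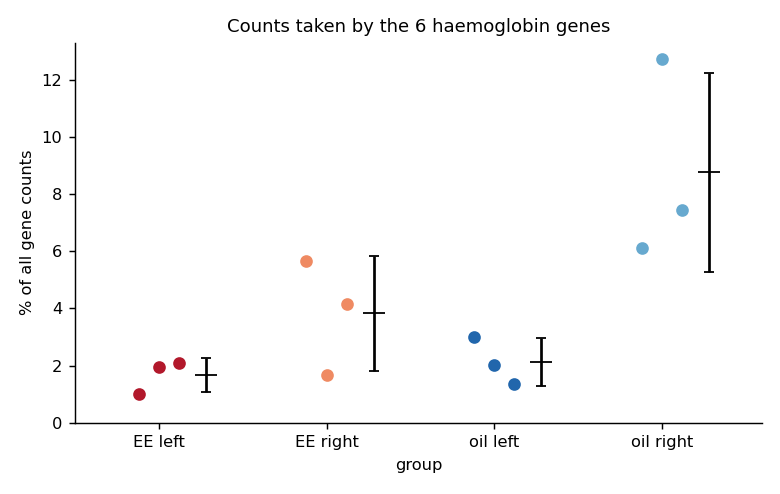
Share of all gene counts taken by the 6 haemoglobin genes (vertical axis, percent) in left EE, right EE, left oil and right oil ducts. Points are samples and the bar beside them is the mean ± SD (n = 3); the 3 right oil ducts, at 6.11% to 12.7%, lie above all other samples.

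Over all 12 samples, the haemoglobin share of left less right ducts differed by -4.39 percentage points, at means of 1.902% and 6.29%. An exact permutation test with labels permuted within each exposure gave a two-sided p of 0.015, and 0.15 after adjustment over the 10 share tests made. The share of EE less oil ducts differed by -2.69 percentage points, at means of 2.75% and 5.44%, with an exact permutation p of 0.04 and an adjusted p of 0.2. Neither difference in share passed the adjustment. Within a single exposure or side, 3 samples against 3 cannot give an exact p under 0.1, and that value was reached for left against right oil ducts and for right EE against right oil ducts. It was 0.3 for left against right EE ducts and 0.5 for left EE against left oil ducts.

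Alpha-A, the major alpha-type chain of later red cells, had the highest FPKM of all genes in 12 of 12 samples and the highest count in 6. FPKM are counts per length of exon and per library size, so genes can be compared. Alpha-A had 10037, 19565 and 20266 FPKM in left EE ducts and 56338, 16772 and 41587 FPKM in right EE ducts. It had 30226, 20284 and 13609 FPKM in left oil ducts, against 61033, 127817 and 75144 FPKM in right oil ducts. Every right oil duct was above every left duct and every EE duct, while left and right EE ducts overlapped through right EE replicate 2. Group means were 16623 ± 5714, 38233 ± 19995, 21373 ± 8362 and 87998 ± 35199 FPKM (SD, n = 3 each) in left EE, right EE, left oil and right oil ducts.

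Alpha-D, the minor alpha-type chain, followed alpha-A at a lower level. It had 3282, 5941 and 6942 FPKM in left EE ducts and 20647, 5338 and 13077 FPKM in right EE ducts. The 3 left oil ducts had 10095, 6718 and 4113 FPKM, against 21449, 43592 and 23968 FPKM in the right oil ducts. The order of the samples was the same as for alpha-A in the highest and the lowest sample, and right EE replicate 1 lay just below the lowest right oil duct. The ratio of alpha-A to alpha-D in FPKM lay between 2.73 and 3.31 in all samples.

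Beta, the adult beta-type chain, had 2116, 4427 and 4874 FPKM in left EE ducts and 10379, 3618 and 9711 FPKM in right EE ducts. It had 6248, 4538 and 3107 FPKM in left oil ducts, against 11725, 25470.4 and 15537 FPKM in right oil ducts. Beta-like, its neighbour on chromosome 1, had 1219.5, 2583 and 3127 FPKM in left EE ducts and 8009, 2196 and 5574 FPKM in right EE ducts. For both genes, right EE replicate 2 stood with the left ducts and right oil replicate 2 was the highest sample. Beta-like had 4068, 2526 and 1818 FPKM in left oil ducts, against 8919.98, 17226 and 10741 FPKM in right oil ducts. Beta exceeded beta-like in every sample, by 1.30 to 1.80 times in FPKM.

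The embryonic chains epsilon and pi were present at far lower levels than the 4 chains above. Epsilon, an embryonic beta-type chain, had 3.96, 28.6 and 17.1 FPKM in left EE ducts and 46.8, 17.4 and 41.7 FPKM in right EE ducts. In left oil ducts it had 29.2, 21.8 and 12.4 FPKM, against 57.5, 176 and 43.6 FPKM in right oil ducts. It was the most variable of the 6 genes, with a 44.4-fold range over the samples set by left EE replicate 1, where it had 54 counts, and right oil replicate 2. On the right, EE replicate 1 was above oil replicate 3, so EE and oil ducts overlapped. Beta exceeded epsilon by 145 to 534 times in FPKM.

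Pi, the embryonic alpha-type chain, was close to the detection limit, at 3 to 45 counts a sample. Left EE ducts had 0.36, 2.96 and 0.65 FPKM, and right EE ducts had 2.59, 0.19 and 1.11 FPKM. Left oil ducts had 2.19, 0.50 and 0.68 FPKM, against 2.12, 2.56 and 1.18 FPKM in right oil ducts. All 4 groups overlapped. The gene reached 1 FPKM in 7 of 12 samples, among them all right oil ducts, whereas the other 5 genes reached it in all 12.

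**Figure D2:**
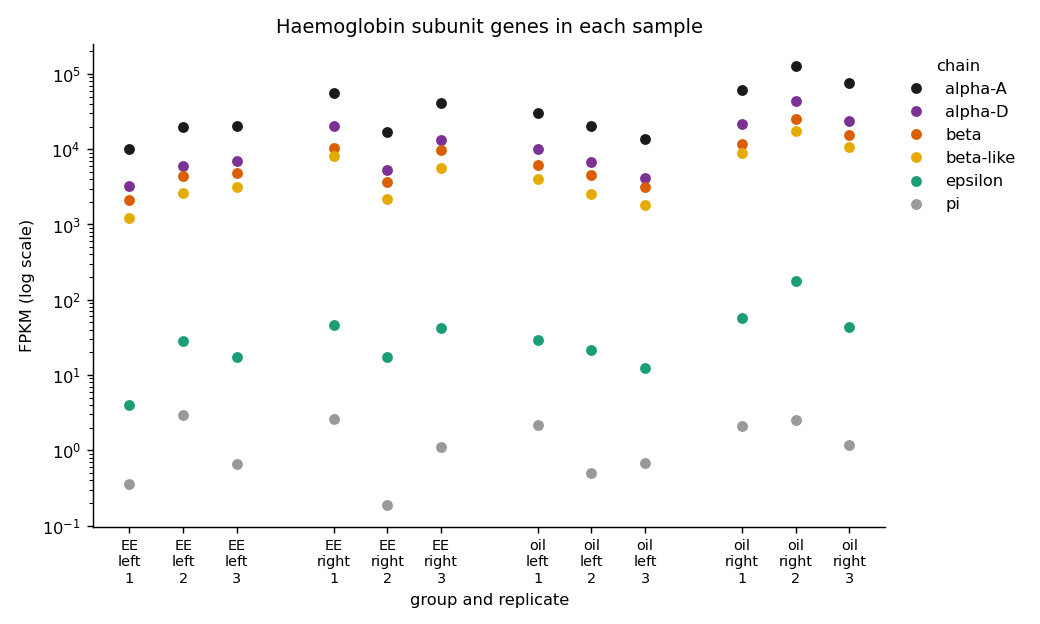
Expression of the 6 haemoglobin genes in FPKM (vertical axis, log scale) in each sample, in the order left EE, right EE, left oil and right oil ducts. Each column of points is a sample; the abundant alpha-A, alpha-D, beta and beta-like chains move up and down together, epsilon follows at 3.96 to 176 FPKM, and pi stays at 0.19 to 2.96 FPKM.

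The make-up of the haemoglobin RNA changed far less than its amount. Alpha-A made up 57.5% to 60.2% of the summed haemoglobin FPKM in the 12 samples, alpha-D 18.2% to 21.6%, beta 10.9% to 13.9% and beta-like 7.32% to 8.88%. Alpha-type chains together held 78.5% ± 1.36 in left EE, 79.3% ± 1.30 in right EE, 79.0% ± 0.709 in left oil and 79.6% ± 0.549 in right oil ducts (SD, n = 3 each). The summed FPKM itself ran from 16659 to 214284. Beta made up less in right oil ducts (11.4% to 12.4%) than in left EE ducts (12.7% to 13.8%), and beta-like made up more in right oil ducts (8.04% to 8.64%) than in left oil ducts (7.41% to 8.03%). The other groups overlapped the right oil ducts. Beta made up 12.3% to 13.7% in left oil and 10.9% to 13.9% in right EE ducts. Beta-like made up 7.32% to 8.88% in left EE and 7.86% to 8.39% in right EE ducts. The gaps were picked after the values were seen and were not tested.

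Epsilon made up 0.119% to 0.410% of the summed FPKM of beta, beta-like and epsilon. The group means were 0.246% ± 0.147 in left EE, 0.275% ± 0.0219 in right EE, 0.280% ± 0.0284 in left oil and 0.284% ± 0.122 in right oil ducts (SD, n = 3 each). That share differed by -0.0163 percentage points between left and right ducts and by -0.0219 percentage points between EE and oil ducts, with exact permutation p-values of 0.76 and 0.685, both adjusted to 0.844. Without left EE replicate 1, the lowest sample, both differences turned, to 0.0157 and 0.0100 percentage points. All 4 groups overlapped in this share.

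Pi was 0.00557% ± 0.00523 of alpha-type FPKM in left EE, 0.00208% ± 0.00125 in right EE, 0.00371% ± 0.00179 in left oil and 0.00175% ± 0.000725 in right oil ducts (SD, n = 3 each). Its share differed by 0.00272 percentage points between left and right ducts (exact permutation p = 0.07, adjusted 0.233), and by 0.00110 between EE and oil ducts (exact permutation p = 0.67, adjusted 0.844). A single sample weighed on both values, since left EE replicate 2, with 37 pi counts, had the highest share at 0.0116%. Without it the difference between EE and oil ducts was -0.000414 percentage points.

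Alpha-D was 24.5% ± 1.12, 24.96% ± 1.61, 24.4% ± 1.01 and 25.2% ± 0.931 of alpha-type FPKM in left EE, right EE, left oil and right oil ducts (SD, n = 3 each). It differed by -0.655 percentage points between left and right ducts (exact permutation p = 0.355, adjusted 0.71) and by -0.0685 between EE and oil ducts (exact permutation p = 0.915, adjusted 0.915). The direction of the last value turned, up to 0.230, in 6 of the 12 fits that each left out a sample. The alpha-type share of haemoglobin differed by -0.713 percentage points between left and right ducts (exact permutation p = 0.24, adjusted 0.6) and by -0.413 between EE and oil ducts (exact permutation p = 0.47, adjusted 0.783).

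The balance of the neighbours beta and beta-like was looked at after the values were seen and was not tested. Beta-like was 36.6% to 39.1% of beta and beta-like FPKM in left EE ducts and 36.5% to 43.6% in right EE ducts, against 35.8% to 39.4% in left oil and 40.3% to 43.2% in right oil ducts.

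**Figure D3:**
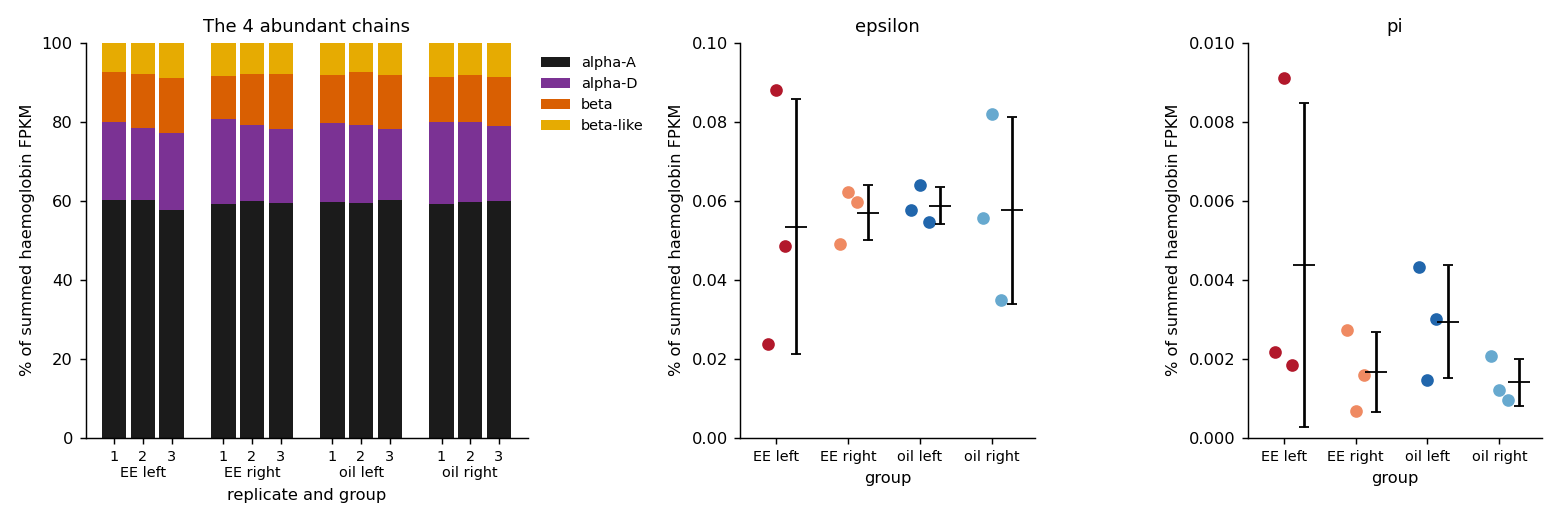
Make-up of the haemoglobin RNA as percent of the summed haemoglobin FPKM of a sample. The stacked bars on the left (1 per sample) hold alpha-A, alpha-D, beta and beta-like, and the panels beside them show epsilon and pi per sample with mean ± SD (n = 3); alpha-A stays at 57.5% to 60.2% in all samples, and the 4 groups overlap for epsilon and for pi.

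The comparison of left with right oil ducts asks how the sides differ without added oestrogen. Epsilon, beta, beta-like, alpha-A and alpha-D, 5 of the 6 genes, were lower in left than in right oil ducts, and pi did not pass the test. Among all 12113 genes tested, 18.1% were lower on the left by the same rule, 18.4% were higher and 36.5% differed in either direction. The log2 ratio of left over right was -2.24 ± 0.43 for alpha-A (SE, adjusted p = 0.000732), a level 4.73-fold lower on the left. It was -2.29 ± 0.45 for alpha-D (adjusted p = 0.00102), -2.13 ± 0.41 for beta (adjusted p = 0.000875 by edgeR) and -2.33 ± 0.45 for beta-like (adjusted p = 0.000799). The embryonic chain epsilon, at -2.33 ± 0.61 (adjusted p = 0.00693), moved by a similar size.

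For these 5 genes all 3 left oil ducts lay below all 3 right oil ducts, which held for 23.6% of the genes tested, while 23.9% had all left ducts above all right ones. Pi had a log2 ratio of -0.96 ± 0.87 (edgeR adjusted p = 0.42). The median over the 6 genes was -2.27, beside -0.00367 over all genes tested. Without right oil replicate 2, the sample richest in haemoglobin, epsilon had a log2 ratio of -1.37 and an adjusted p of 0.0645, and 4 of the 6 genes were called. The share of all genes called without that sample is not given here. With library size as the only scaling the median of all genes moved to 0.18, and 3749 of 4973 called genes were higher on the left, against 2232 of 4422 with TMM scaling. Alpha-A then stood at -2.04, and 5 of 6 haemoglobin genes were still called lower.

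Left against right EE ducts gave no call among the 6 genes by edgeR (adjusted p from 0.441 to 0.992), and 0 by DESeq2 and by limma. In this comparison 0.0826% of all genes were called by edgeR, all of them lower on the left, and 0% were higher. All 6 haemoglobin genes overlapped between the sides, where 6.16% of all genes had every left EE duct below every right one and 6.48% above. At an unadjusted p under 0.05, 4 of the 6 were lower on the left, beside 3.93% of all genes. Log2 ratios of left over right were -1.25 ± 0.41 for alpha-A, -1.32 ± 0.44 for alpha-D, -1.10 ± 0.40 for beta and -1.23 ± 0.43 for beta-like (SE). That of epsilon was -1.16 ± 0.61, and that of pi was -0.08 ± 0.87.

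The change of the side difference with exposure was tested as an interaction, the left minus right log2 ratio in EE less that in oil. It was called by edgeR for 0 of the 6 genes, also 0 by DESeq2 and by limma, where 11.2% of all genes were called by edgeR, 4.68% higher and 6.53% lower. At an unadjusted p under 0.05 it was 0 of the 6, beside 24.6% of all genes. Estimates were positive for all 6, from 0.88 for pi to 1.17 for epsilon, with adjusted p from 0.281 to 0.723. Right EE replicate 1, left oil replicate 1 and right oil replicate 1 were left out together as an alternative, because earlier results of these data had put transcripts of other tissues in them. Of the 3, right oil replicate 1 stood out in the list of skeletal muscle genes, at a summed 162.1 FPKM, while right EE replicate 1 (11.04) and left oil replicate 1 (13.8) lay among the other samples. Without the 3 libraries alpha-A (1.98, adjusted p = 0.0368), alpha-D (2.08, adjusted p = 0.0336) and beta-like (2.15, adjusted p = 0.0318) were called by edgeR, 3 of the 6. The samples left out had the highest haemoglobin share of right EE (5.64%) and left oil ducts (3.01%) and the lowest of right oil ducts (6.11%). Leaving out each of them moves the interaction of haemoglobin upward, so these 3 calls are no support. The share of all genes called in that fit is not given here.

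On the left, EE and oil ducts did not separate for any haemoglobin gene. EdgeR, DESeq2 and limma each called 0 of the 6, where 13.3% of all genes were called by edgeR, 6.79% higher and 6.46% lower. At an unadjusted p under 0.05, 0 of the 6 passed, beside 26.3% of all genes. All 6 overlapped, where 15.6% of all genes lay wholly below and 15.7% wholly above. Log2 ratios of EE over oil ran from -0.41 for epsilon to 0.14 for pi, with adjusted p from 0.614 to 0.946. Alpha-A stood at -0.38 ± 0.41 and beta at -0.30 ± 0.40 (SE).

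On the right, 5 of the 6 genes were lower in EE than in oil ducts, where 16.4% of all genes were called lower, 17.6% higher and 34% in either direction. Alpha-A fell 2.61-fold in EE (log2 ratio -1.38 ± 0.42, adjusted p = 0.0171) and alpha-D by 1.37 on the log2 scale (SE 0.44, adjusted p = 0.025). Beta had a log2 ratio of -1.33 ± 0.40 (edgeR adjusted p = 0.0176) and beta-like one of -1.40 ± 0.43 (adjusted p = 0.0203). Epsilon was also called, at -1.59 ± 0.59 (adjusted p = 0.047), although its groups overlapped, and it lost the call in 13 of 23 alternatives. Pi, at -0.74 ± 0.85 (adjusted p = 0.547), did not pass.

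For alpha-A, alpha-D, beta and beta-like the right EE ducts all lay below the right oil ducts, which held for 22.3% of the genes tested, while 23.8% lay wholly above. The median over the 6 genes was -1.37, beside 0.00282 over all genes. These calls rested on single samples. Without right EE replicate 2, the EE duct lowest in haemoglobin on that side, or without right oil replicate 2, 0 of the 6 genes were called, and alpha-A stood at -1.02 (edgeR adjusted p = 0.0584) and -0.94 (adjusted p = 0.0996). Without right EE replicate 3, 3 of the 6 were called. The shares of all genes called in these fits are not given here, so a general loss of calls is not told apart. This comparison and the one of the sides in oil share the right oil ducts. With library size as the only scaling, the median of all genes was 0.17, 3479 of 4592 called genes were higher in EE, against 2134 of 4122 with TMM, and 4 haemoglobin genes were called lower.

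**Figure D4:**
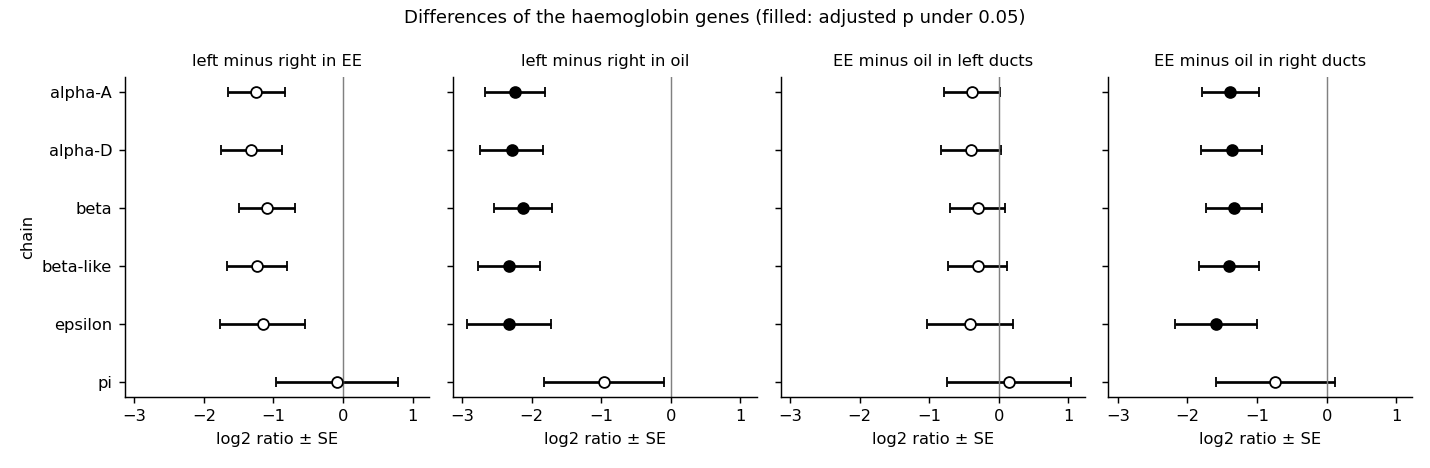
Log2 ratios of the 6 haemoglobin genes (horizontal axes, ± SE from edgeR) for left minus right in EE, left minus right in oil, EE minus oil in left ducts and EE minus oil in right ducts. Filled points passed an adjusted p of 0.05 and open points did not; 5 genes are filled in oil and 5 in right ducts, all with negative ratios.

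Genes that build the red cell around its haemoglobin were read from lists chosen by their known roles. Of 12 tested genes of the red cell membrane and its skeleton, 11 were lower in left than in right oil ducts (median log2 ratio -1.63). Among all genes tested, 18.1% were lower there. The 4 with the lowest p were RHCE, an Rh blood group protein, at -2.03 ± 0.36 (adjusted p = 0.000371), SPTB, beta-spectrin, at -1.60 ± 0.34 (adjusted p = 0.0018), EPB42, band 4.2 of the membrane skeleton, at -1.73 ± 0.39 (adjusted p = 0.00255) and RHAG, the Rh-associated glycoprotein, at -1.89 ± 0.43 (adjusted p = 0.00285). In right ducts 6 of the 12 were lower in EE than in oil ducts (median -0.90), beside 16.4% of all genes. Among them were EPB41, protein 4.1, at -0.49 ± 0.15 (adjusted p = 0.0174), RHCE at -1.09 ± 0.34 (adjusted p = 0.0211) and RHAG at -1.29 ± 0.42 (adjusted p = 0.0263). Without right oil replicate 2 these 3 were not called (adjusted p = 0.106, 0.137 and 0.176), nor without right EE replicate 2 (0.0868, 0.0687 and 0.083). Left against right EE ducts gave 0 calls by edgeR, DESeq2 and limma, with 8 of the 12 lower on the left at an unadjusted p under 0.05 (median -0.90), beside 3.93% of all genes.

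Of 11 genes of iron uptake and red cell enzymes, 10 were lower in left than in right oil ducts (median -1.64), beside 18.1% of all genes. In right EE against right oil ducts 6 of the 11 were lower (median -0.73), beside 16.4%. Between the oil sides, FTH1, the ferritin heavy chain, had a log2 ratio of -1.74 ± 0.25 (adjusted p = 5.5e-05) and BPGM, which makes bisphosphoglycerate, one of -1.71 ± 0.32 (adjusted p = 0.000627). EPB41L3 was at -1.67 ± 0.10 (adjusted p = 6.7e-09) and NT5C3A, a nucleotidase of maturing red cells, at -1.39 ± 0.24 (adjusted p = 0.000394). EPB41L3 is a relative of protein 4.1, neither an iron uptake gene nor an enzyme, and the counts of the list include it. The interaction was called higher for 2 of the 11, EPB41L3 (1.33 ± 0.14, adjusted p = 1.48e-05) and FTH1 (1.10 ± 0.34, adjusted p = 0.0491). It was called higher for 4.68% of all genes and for 0 haemoglobin genes. The list gave 0 calls between left and right EE ducts by edgeR, DESeq2 and limma, with 7 of 11 lower on the left at an unadjusted p under 0.05, beside the same 3.93%.

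Of 14 genes of the path that makes haem, 9 were lower and 1 was higher in left than in right oil ducts (median -0.56), beside 18.1% and 18.4% of all genes. UROD and UROS, enzymes of the middle of the path, were at -1.31 ± 0.26 (adjusted p = 0.000924) and -1.04 ± 0.22 (adjusted p = 0.00142). SLC25A38, the mitochondrial glycine carrier, was at -1.20 ± 0.25 (adjusted p = 0.00147), while FLVCR1, a haem exporter, was higher on the left at 1.04 ± 0.20 (adjusted p = 0.000654). In right ducts 6 were lower and 2 higher in EE than in oil (median -0.38), beside 16.4% and 17.6% of all genes: FLVCR1 and ALAD, the enzyme of the second step, were higher at 1.08 ± 0.19 (adjusted p = 0.000509) and 0.56 ± 0.14 (adjusted p = 0.00536), and SLC25A38 was lower at -1.09 ± 0.25 (adjusted p = 0.00301). On the left, FECH, the enzyme that puts iron into haem, was higher in EE than in oil ducts at 0.52 ± 0.16 (adjusted p = 0.0398), the 1 call of the list there. A count of 1 in 14 was near the share of all genes called higher there, 6.79%. The FECH call was lost without any single left duct, in 6 of the 12 fits that each left out a sample, with adjusted p up to 0.144. Left against right EE ducts gave 0 calls by edgeR with 2 lower at an unadjusted p under 0.05, beside 3.93% of all genes. ALAS2, the red cell form of the first enzyme, was not analysed here.

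Of 8 tested regulators of red cell formation, 6 were lower in left than in right oil ducts (median -1.07), beside 18.1% of all genes. TAL1, a transcription factor of blood formation, was at -1.51 ± 0.37 (adjusted p = 0.00455), and the cofactors LDB1 and CBFA2T3 at -0.91 ± 0.10 (adjusted p = 6.83e-06) and -1.24 ± 0.15 (adjusted p = 1.02e-05). HEMGN, hemogen, another of the 6, was low throughout, at 0.50 ± 0.321 FPKM in left EE, 0.793 ± 0.587 in right EE, 0.44 ± 0.149 in left oil and 1.89 ± 0.673 in right oil ducts (SD, n = 3 each). It reached 1 FPKM in 4 samples, the 3 right oil ducts and right EE replicate 1, so it passed the filter through the group where it was high, and its call is no support. GFI1B, also among the 6, reached 1 FPKM only in right EE replicate 1 (1.0) and right oil replicates 2 and 3 (1.39 and 1.14). So GFI1B too passed the filter through right ducts, and its call is no support either. The count of 6 includes both genes. In right ducts 4 of the 8 were lower in EE than in oil, beside 16.4% of all genes. They were CBFA2T3 (-1.12 ± 0.15, adjusted p = 2.95e-05), GATA2 (-0.64 ± 0.09, adjusted p = 7.07e-05), ZFPM1 (-0.68 ± 0.12, adjusted p = 0.000373) and LDB1 (-0.53 ± 0.10, adjusted p = 0.000989). GATA2 and ZFPM1 were also lower in EE than in oil ducts on the left, at -0.64 ± 0.09 (adjusted p = 0.000192) and -0.82 ± 0.12 (adjusted p = 0.0002), where no haemoglobin gene was called. In right ducts TAL1, at -0.88 ± 0.36 for EE over oil (adjusted p = 0.0711), did not pass. GATA1, KLF1, NFE2 and EPOR were not analysed here.

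Factors known in mammals to govern the switch between embryonic, fetal and adult haemoglobins were read next. Of 10 tested, 4 were higher and 2 lower in left than in right oil ducts (median -0.000845), and 5 were higher and 2 lower in right EE than in right oil ducts (median 0.19). Among all genes, 18.4% were higher and 18.1% lower between the oil sides, and 17.6% and 16.4% in right ducts, so the share of lower genes in the list was near that of all genes. Between the oil sides, MYB was at 1.13 ± 0.19 (adjusted p = 0.000302), the RNA-binding protein gene IGF2BP1 at 0.81 ± 0.13 (adjusted p = 0.000156) and SOX6 at -1.03 ± 0.29 (adjusted p = 0.0113). Without right oil replicate 2 SOX6 was at -0.72 (adjusted p = 0.0731). LIN28B, an RNA-binding protein gene of early development, was higher in EE than in oil ducts on the left at 1.70 ± 0.29 (adjusted p = 0.00082) and on the right at 1.49 ± 0.29 (adjusted p = 0.000892). These genes are also used outside the blood line, and in whole ducts the cells that hold their RNA were not resolved.

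The genes whose level was most like the summed haemoglobin level were looked up across the 12 samples, as a description and with no test, since samples of a group are alike in many genes. Genes known only by a LOC identifier were left out of this ranking. Among the others, the 8 with the highest Pearson correlation of log2 CPM were EPB42 (r = 0.991), SLC43A3 (0.989), SNX22 (0.989), SUOX (0.987), NFKBIE (0.986), RHAG (0.984), SLC25A37 (0.982) and SLC4A1 (0.981). Their Spearman correlations were 0.958 to 0.993. EPB42, RHAG and SLC4A1, the band 3 anion exchanger, are membrane proteins of red cells, and SLC25A37 is mitoferrin, which carries iron into mitochondria. Histone H5 (LOC107314004), the linker histone of nucleated bird red cells, had r = 0.983 and was looked up after the values were seen. Of 12106 genes compared, 213 (1.76%) had r over 0.9, beside 10 of 12 membrane genes, 5 of 8 regulators, 5 of 11 iron and enzyme genes and 5 of 14 haem synthesis genes. The 5 regulators include HEMGN and GFI1B, which passed the filter only through right ducts rich in haemoglobin. The likeness of HEMGN and GFI1B to haemoglobin is therefore no support. The haemoglobin genes themselves had r of at least 0.939 with the sum, which contains them, other than pi, at 0.698.

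Haemoglobin did not keep a fixed ratio to every red cell gene. Per FPKM of SLC4A1, summed haemoglobin stood at 501 to 673 in left EE, 604 to 711 in right EE and 558 to 751 in left oil ducts, and at 904 to 1049.8 in right oil ducts. Per summed FPKM of the membrane list it was 71.4 to 115, 98.1 to 165, 77.5 to 134 and 186 to 216 in the same order. Per FPKM of SPTB it was 1015 to 1111, 1021 to 1648, 939 to 1484 and 1735 to 2110 in that order. In these ratios the right oil ducts stood above the other 9 samples. The membrane sum also holds ADD1, which had r = 0.26 with haemoglobin and did not differ between the oil sides (-0.10 ± 0.09, adjusted p = 0.433). The ratio to that sum is therefore not one per red cell. Per FPKM of RHAG summed haemoglobin was at 760.4 to 994 in left EE, 859 to 1007 in right EE, 648 to 899 in left oil and 917 to 1081 in right oil ducts. By RHAG all right oil ducts still lay above all left oil ducts, but they overlapped both EE groups. Both the haemoglobin and the membrane genes have other sources of spread, and no test was made of these ratios.

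**Figure D5:**
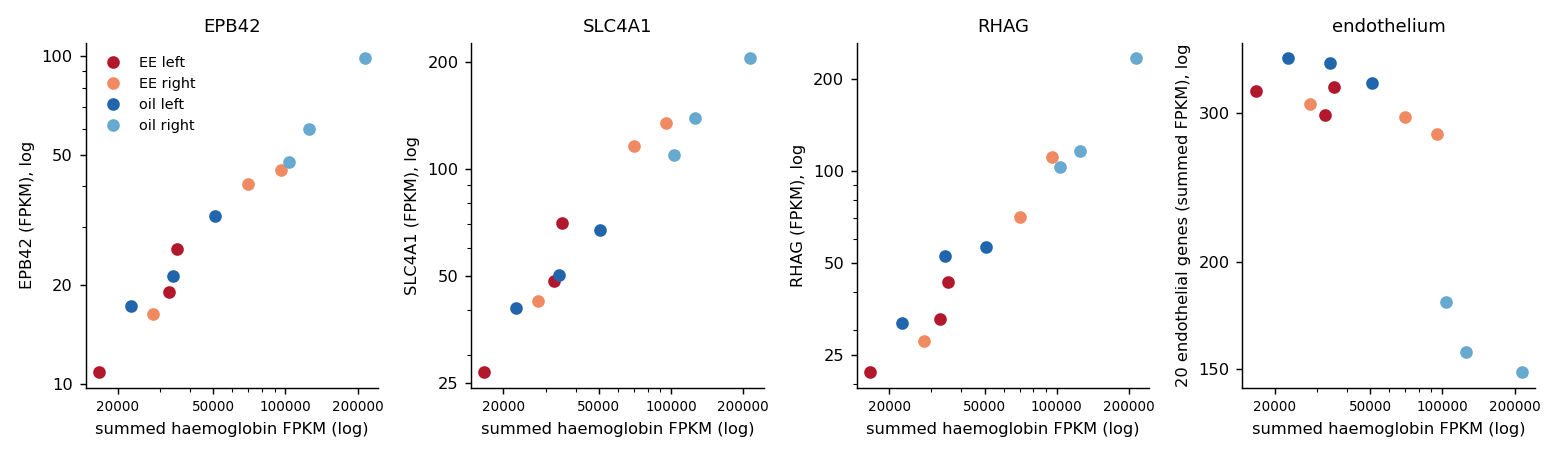
Level of EPB42, SLC4A1 and RHAG in FPKM, and of 20 endothelial genes as summed FPKM (vertical axes, log scale), against the summed haemoglobin FPKM (horizontal axes, log scale), with 1 point per sample coloured by group. The 3 red cell genes climb with haemoglobin over its range from 16659 to 214284 FPKM, and the endothelial sum is 148.7 to 179.7 in the right oil ducts, below the 283 to 347.5 of the other 9 samples.

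Markers of other cell types also moved with the groups, and their part in the haemoglobin differences was not tested. Of 20 endothelial genes, 16 were higher and 1 lower in left than in right oil ducts (median 1.09), beside 18.4% and 18.1% of all genes. In right EE against right oil ducts 17 were higher and 1 lower (median 0.80), beside 17.6% and 16.4%. FLT1 and TIE1, receptors of vessel cells, were at 1.79 ± 0.15 (adjusted p = 2.1e-07) and 1.37 ± 0.11 (adjusted p = 1.64e-07) between the oil sides. KDR, another such receptor, was the 1 lower gene, at -1.15 ± 0.20 (adjusted p = 0.000285). It was also the 1 lower gene in right EE against right oil ducts, at -1.11 ± 0.19 (adjusted p = 0.00041). Right oil ducts thus had the most haemoglobin RNA and, by the sum of the list, the least endothelial RNA. Of the 20 endothelial genes, 19 had a negative correlation with summed haemoglobin, and KDR had a positive one (r = 0.80). The interaction was called for 15 of the 20, 14 lower and 1 higher, beside 6.53% and 4.68% of all genes.

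Of 6 macrophage genes, 4 were lower in left than in right oil ducts, beside 18.1% of all genes. In right EE against right oil ducts 4 of the 6 were lower, beside 16.4%. C1QA, a complement protein gene of macrophages, was at -3.12 ± 0.24 (adjusted p = 1.29e-07) between the oil sides. The summed macrophage list had 27.1 to 32.9 FPKM in left EE, 28.7 to 40.9 in right EE, 21.4 to 23.3 in left oil and 63.9 to 66.8 in right oil ducts, and MARCO was under 0.5 FPKM in all samples. On the left this sum was higher in all EE ducts than in all oil ducts, whereas haemoglobin overlapped there. The interaction was called higher for 4 of the 6 macrophage genes and for 0 haemoglobin genes, beside 4.68% of all genes. All 6 macrophage genes correlated positively with summed haemoglobin, at r of 0.544 to 0.854. Their median r was 0.746, beside -0.0187 over the genes compared. Of the 6, 0 had r over 0.9, a count near the share of the genes compared, 1.76%. Of 9 genes of haem breakdown and iron export, 5 were lower in left than in right oil ducts, beside 18.1% of all genes. Among them were HMOX1, haem oxygenase, at -1.67 ± 0.16 (adjusted p = 8.43e-07) and the iron exporter SLC40A1 at -1.30 ± 0.13 (adjusted p = 1.76e-06). HMOX1 was higher in EE than in oil ducts on the left, at 1.48 ± 0.16 (adjusted p = 1.05e-05), where no haemoglobin gene was called.

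Thrombocyte genes, of the nucleated platelets of birds, gave 1 higher and 1 lower call of 6 between the oil sides (median -0.82). Neither count was above the share of all genes, 18.4% higher and 18.1% lower. In right EE against right oil ducts 1 was higher and 2 lower (median -1.12), beside 17.6% and 16.4% of all genes. The median r of the 6 with summed haemoglobin was 0.60, beside -0.0187 over the genes compared. The list sums were 23.4 to 25.1, 23.6 to 26.7, 22.7 to 27.5 and 23.3 to 33.6 FPKM in left EE, right EE, left oil and right oil ducts. Muscle genes gave 3 lower calls of 4 between the oil sides, beside 18.1% of all genes. However, right oil replicate 1 held 162.1 FPKM of that list and the other 11 samples at most 20.1. Without that sample TNNC2, a muscle troponin, was at -0.28 (adjusted p = 0.708). TNNI2, another muscle troponin, kept its call between the oil sides in each of the 12 fits that left out a sample (-5.08 to -2.60, adjusted p at most 0.0112). Genes of the Müllerian duct itself, PAX2, WNT7A and others, were present in all samples at list sums of 298 to 403 FPKM. Between the oil sides 2 of 11 were higher and 1 lower. Neither count was above the share of all genes, at 18.4% and 18.1%. In EE against oil ducts 1 of the 11 was higher and 5 lower on the left, beside 6.79% and 6.46% of all genes. On the right 3 were higher and 5 lower, beside 17.6% and 16.4%. Their r with summed haemoglobin ran from -0.89 to 0.80, so the duct genes are no steady reference.

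Of the globins outside the haemoglobin clusters, cytoglobin did not follow the haemoglobin genes. CYGB, cytoglobin of connective tissue cells, had 110 ± 5.57 FPKM in left EE, 108 ± 11.04 in right EE, 135 ± 0.405 in left oil and 106 ± 12.7 in right oil ducts (SD, n = 3 each). It was lower in EE than in oil ducts on the left, at a log2 ratio of -0.31 ± 0.08 (adjusted p = 0.0162), and without left EE replicate 1 it was at -0.27 (adjusted p = 0.0752). NGB, neuroglobin, had 1.52 ± 0.198, 1.73 ± 0.195, 1.63 ± 0.7995 and 0.503 ± 0.134 FPKM in the same order. NGB was higher in left than in right oil ducts at 1.52 ± 0.41 (adjusted p = 0.00892). Without left oil replicate 1 that ratio was 1.02 (adjusted p = 0.0667). NGB was also higher in right EE than in right oil ducts, at 1.598 ± 0.41 (adjusted p = 0.00661). At a mean of 0.503 FPKM in right oil ducts, NGB passed the filter through the other groups, where it was higher. These NGB calls are therefore no support. Myoglobin (MB) and androglobin (ADGB) did not pass the filter.

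The genes beside the clusters were read for comparison. NPRL3, which lies 1082 bases before pi and in mammals holds enhancers of the alpha-type genes, had 4.38 to 7.33 FPKM. It was lower in left than in right oil ducts at -0.55 ± 0.15 (adjusted p = 0.00939) and in right EE than in right oil ducts at -0.42 ± 0.15 (adjusted p = 0.0386), in the direction of the haemoglobin genes but by less. MRPL28, a mitochondrial ribosome protein gene on the other side of the cluster, was higher in left than in right oil ducts at 0.37 ± 0.11 (adjusted p = 0.0145). PGAP6, nearer on that side, was not called between the oil sides (0.16 ± 0.11, adjusted p = 0.284), nor was MPG, beyond NPRL3 (-0.36 ± 0.14, adjusted p = 0.062). PGAP6 was higher in EE than in oil ducts on the left (0.41 ± 0.11, adjusted p = 0.017) and on the right (0.40 ± 0.11, adjusted p = 0.00871). The olfactory receptor genes around beta and beta-like were at 0 FPKM in all samples.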

How the data were processed

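RNA was sequenced from left and right Müllerian ducts of EE-exposed and oil-exposed female quail embryos, 3 samples in each of 4 groups. Per the submitters' processing notes, cutadapt 1.9.1, HISAT2 2.0.1, HTSeq 0.6.1 and DESeq2 1.6.3 were used, and per the labels' protocols the libraries were made from polyadenylated RNA. For build, annotation, strand setting and reads with several matches, the sources used here give nothing. The authors deposited unnormalised counts for each gene beside FPKM, which those counts and the exonic lengths (in bases, also deposited) returned to within 0.005. All value columns were used, and no 2 samples held the same counts.

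Counts were tested in R 4.3.3 with edgeR 4.0.16 (TMM, quasi-likelihood, two-sided, 4 group means over 12 samples) for the 12113 of 16013 genes that reached 1 FPKM in 3 or more of the 12 samples. A gene was called at a Benjamini-Hochberg adjusted p under 0.05 over all tested genes, and where no tool is named beside an adjusted p it is edgeR's. Log2 ratios are given with their standard error (SE). All 6 haemoglobin genes described passed the filter. The other of the 7 genes that the rule finds is not reported here, so haemoglobin sums and shares are over 6 genes. The procedure was tested on simulated data first. Shares were compared by exact permutation tests, two-sided, with 400 arrangements and a smallest p of 0.005, adjusted over 10 tests. Pearson correlations used log2 CPM computed by edgeR.

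The haemoglobin genes and the 12 lists (151 genes, 125 in the table, 4 of them through their descriptions) were chosen with earlier results of these data known. The text names 6 haemoglobin genes, up to 4 called genes with the lowest p per list and comparison, and other globins. It also names the 8 genes most like summed haemoglobin among those not known only by a LOC identifier. Genes beyond that rule (histone H5, the neighbours of the clusters, GFI1B, KDR, and list genes given for their failure to pass) were chosen after their values were seen. Alternatives were DESeq2 1.42.0, limma 3.58.1 on log2(FPKM + 1) and log2(FPKM + 0.1), other scalings and filters, a replicate block, 2-group fits, leaving out each sample, and leaving out 3 libraries. A filter asking for 1 FPKM in all 3 samples of a group was added after the data were seen.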

Additional observations from a re-analysis of the deposited data

How the results depend on the processing

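Of 682 values of the haemoglobin genes under alternatives, 641 kept their direction and their side of the threshold. The replicate block is given here because it was not settled whether same-numbered left and right samples are pairs. Their deviations from the group means correlated at -0.063 to 0.132, against -0.214 to 0.107 for left and right samples of different number. With the block the comparisons called 5, 0, 0, 4 and 0 haemoglobin genes, in the order sides in oil, sides in EE, EE in left ducts, EE in right ducts and interaction. All genes called between the sides in EE numbered 10, against 80 with DESeq2, 0 with limma at either pseudocount, 4 with the block, 6 without 3 libraries (replicate 1 of right EE, left oil and right oil ducts), 4 with a fit of 2 groups and 4 to 51 leaving out single samples. Haemoglobin genes called in right ducts ranged from 0 to 5 leaving out single samples, and the interaction gave 3 without the 3 libraries. For the block, the single-sample fits and the fit without 3 libraries, counts of all genes called are given only for the sides in EE. Elsewhere, fewer haemoglobin calls cannot be told from fewer calls in general. The haemoglobin share differed between sides by -4.39 with the block (exact permutation p = 0.0625) and -4.82 without the 3 libraries (exact permutation p = 0.0667). Between EE and oil it differed by -2.69 with the block (exact permutation p = 0.156), -3.59 without the 3 libraries (exact permutation p = 0.167), -0.82 on the log2 scale (exact permutation p = 0.07) and -3.35 to -1.71 leaving out single samples. For shares, the block test flipped the signs of the differences between same-numbered samples, and its p-values were not adjusted. The alpha-type share between sides was -0.713 with the block (exact sign-flip p = 0.0313). That is the smallest p the sign-flip test can give, and the main exact permutation test gave 0.24. Leaving out single samples gave -0.0564 to 0.0157 and -0.0621 to 0.0100 for the epsilon share between sides and between exposures, 0.00121 to 0.00351 and -0.000414 to 0.00189 for the pi share between sides and between exposures, and -0.533 to 0.230 for the alpha-D share between exposures.

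Among haemoglobin genes, directions turned where the gene was not called. Pi between the sides in EE was 0.0538 with limma at a pseudocount of 0.1, 0.00696 with the block, 0.93 without the 3 libraries and -1.40 to 0.94 leaving out single samples. In left ducts the single-sample ranges were -1.04 to 0.0604 for epsilon, -0.59 to 0.0685 for beta-like (0.0690 without the 3 libraries) and -1.18 to 1.11 for pi (-0.00724 with limma at 0.1). The interaction of pi ran from -0.44 to 1.91. The muscle gene TNNT3, called lower in both comparisons, turned to 0.82 between the sides in oil and 0.44 in right ducts without the 3 libraries, with single-sample ranges of -3.90 to 0.86 and -4.30 to 0.44. A fit of 2 groups was not possible for the interaction. The cause was not tested. At 3 to 45 counts, the depth leaves pi without a usable comparison.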
